A study of Mus musculus with 6 samples.

Results

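The genes described are 10 members of the ETS family of transcription factors: Ets1, Elf1 and Elf4 of lymphoid cells, Fli1 and Etv6 of blood and endothelium, Spi1 of myeloid cells, Erg and Elk3 of endothelium, and the broadly expressed Gabpa and Ets2. The data are the H3K4me3 regions that overlap each gene body plus 5 kb on either side, called the gene window. On the main chromosomes, 65 of the 48546 regions in the wild-type list and 89 of the 46565 in the knockout list lay in these windows. The regions were selected on where the authors called them, and the genes were picked with earlier results of these libraries in view, so the values below describe the 10 genes and test nothing. Cells were CD8+ tumour-infiltrating lymphocytes from E0771 tumours, a mouse mammary tumour line, grown in C57BL/6 mice that were either wild type or carried a Cre-mediated deletion of Atg5, a gene needed to form autophagosomes. The labels give neither the promoter that drives Cre nor the age of the mice or the number pooled. Each genotype had 1 H3K4me3 library, made with the same antibody lot, so no difference has a replicate check. Native chromatin was cut with micrococcal nuclease before the precipitation. Samples for H3K27me3 and for input were not used here.

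ETS factors bind DNA through a shared winged helix domain that reads a GGAA core, and most of them activate transcription. In blood, Spi1 (PU.1) drives myeloid and early progenitor programmes, while Ets1, Fli1, Elf1 and Elf4 act in developing and mature T cells. Fli1 and Erg also maintain endothelial identity. H3K4me3 is a histone mark concentrated at the starts of active genes, and it can spread into the gene body at genes that define a cell type.

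In the knockout library H3K4me3 regions reached much further over Ets1, Elf1, Elf4 and Fli1 than in the wild-type library, and most of the added length lay inside the genes, away from the starts used. Erg, hardly covered in the wild type, had several weak knockout regions. The windows of Etv6, Spi1, Gabpa and Ets2 held about the same covered length in both, and Elk3 lay between. Of the 10 genes, 5 had at least 1.5 times more covered length in the knockout (500 bp was added to both lengths before the ratio), where 12.6% of 16415 protein-coding genes with a region did. No member was shorter by 1.5 times, where 9.83% of those genes were. The median log2 ratio was 0.69 over the 10 genes and -0.02 over all these genes.

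Both lists were of similar size, with median widths of 1103 and 1130 bp and with 71.3 and 73.1 Mb covered for the wild type and the knockout. The authors' lists do not state depth, and their fold at each summit describes a region within its own list. Where folds or summit reads of both lists are printed for a gene, no difference is read from them. Whole reads at the summit could be recovered from the authors' fold and p for nearly all regions tried, and gave a lowest background of 2.85 reads for the wild type and 2.62 for the knockout. T cell markers differed in the same direction as the lymphoid ETS genes: all 10 were longer by 1.5 times in the knockout, their windows summed to 28.7 kb (0 to 8120 bp per gene) for the wild type against 178 kb (5228 to 47528 bp) for the knockout, and Cd8a and Cd3e had no wild-type region. Cd8a encodes a chain of CD8, which defines the labelled cell type, and it thus had no called region in the library labelled wild type. The windows of Cd3d and Cd3g overlap, so length in the overlap is counted for both genes. Of 10 myeloid markers 1 was longer and 3 were shorter, and of 10 endothelial markers none was longer and 2 were shorter (Tie1 and Cdh5), while Tek and Emcn were at 0 in both. Of 7 epithelial markers 3 were longer and none was shorter, and of 5 B cell markers 2 were longer and none was shorter, with Ms4a1 at 0 in both. These marker counts stand beside 12.6% longer and 9.83% shorter over all protein-coding genes with a region. The part of any difference in cell composition in the ETS values was not tested. In libraries made from many cells, the share of cells that carry the mark and the amount of it per cell cannot be told apart.

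Where a gene has several listed starts, the sequence before each start shows how rich in CG dinucleotides it is, and 5 such stretches are given first. Each is the 250 bases that precede a start on the strand of the gene, from RefSeq on GRCm38.p6, with CG dinucleotides in capitals. Promoter entries were matched for 7 of the 10 genes.
Elf1 start 2, chr14:79515424-79515673, plus strand: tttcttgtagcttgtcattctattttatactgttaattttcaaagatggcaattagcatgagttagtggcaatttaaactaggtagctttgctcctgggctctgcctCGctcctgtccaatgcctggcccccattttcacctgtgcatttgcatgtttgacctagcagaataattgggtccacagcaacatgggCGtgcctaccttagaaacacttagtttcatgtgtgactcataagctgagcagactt
Elf4 start 1, chrX:48463133-48463382, minus strand: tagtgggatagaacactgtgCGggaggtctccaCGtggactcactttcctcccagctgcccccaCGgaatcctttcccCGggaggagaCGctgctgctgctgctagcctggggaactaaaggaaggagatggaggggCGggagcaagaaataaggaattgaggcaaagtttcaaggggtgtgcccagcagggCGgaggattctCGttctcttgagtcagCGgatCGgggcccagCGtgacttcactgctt
Elf4 start 2, chrX:48454320-48454569, minus strand: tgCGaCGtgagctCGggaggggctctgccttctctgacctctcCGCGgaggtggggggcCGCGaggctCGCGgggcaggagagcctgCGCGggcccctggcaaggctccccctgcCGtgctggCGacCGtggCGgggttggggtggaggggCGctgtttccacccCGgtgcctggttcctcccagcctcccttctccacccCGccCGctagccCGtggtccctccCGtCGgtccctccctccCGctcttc
Erg start 1, chr16:95586594-95586843, minus strand: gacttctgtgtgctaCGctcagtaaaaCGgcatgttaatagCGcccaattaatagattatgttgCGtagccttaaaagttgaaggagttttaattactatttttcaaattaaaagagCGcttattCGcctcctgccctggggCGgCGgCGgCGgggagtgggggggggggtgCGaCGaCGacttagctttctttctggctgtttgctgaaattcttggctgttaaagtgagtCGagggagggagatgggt
Erg start 3, chr16:95459349-95459598, minus strand: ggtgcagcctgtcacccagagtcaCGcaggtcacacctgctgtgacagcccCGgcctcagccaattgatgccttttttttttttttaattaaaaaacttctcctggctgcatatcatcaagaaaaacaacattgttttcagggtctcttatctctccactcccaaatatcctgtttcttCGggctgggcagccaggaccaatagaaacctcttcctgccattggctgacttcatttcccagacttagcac

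CG dinucleotides are common at many promoters that carry H3K4me3, and over all 32851 such stretches the median was 6. The inner Elf1 start above holds 2, whereas the outer Elf1 start, which overlaps the neighbouring gene Wbp4, holds 35. Elf4 has 11 at its outer start and 23 at its inner start. Erg has 14 at its outermost start and 3 at its innermost, and no region of either list lies on those Erg stretches. A 7-base ETS motif, CCGGAAG, was searched on both strands. It was found in 6.91% of all such stretches. Ets1, Fli1 and Spi1 had no stretch to search. Elf1, Elf4 and Erg had several stretches, and all were searched. Among the 7 members with promoter entries the motif was found in Gabpa alone, 93 bases before the start, and no excess over the share of all stretches is read from this. That match is shown because GABP is itself an ETS factor, with the match on the opposite strand in capitals.
Gabpa, chr16:84835020-84835049, plus strand: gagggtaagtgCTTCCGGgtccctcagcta

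A match gives the letters in this window and is not a measured binding site. The starts of Atp5j and Gabpa lie 148 bp apart, so the regions there cannot be assigned to 1 of them.

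**Figure D1:**
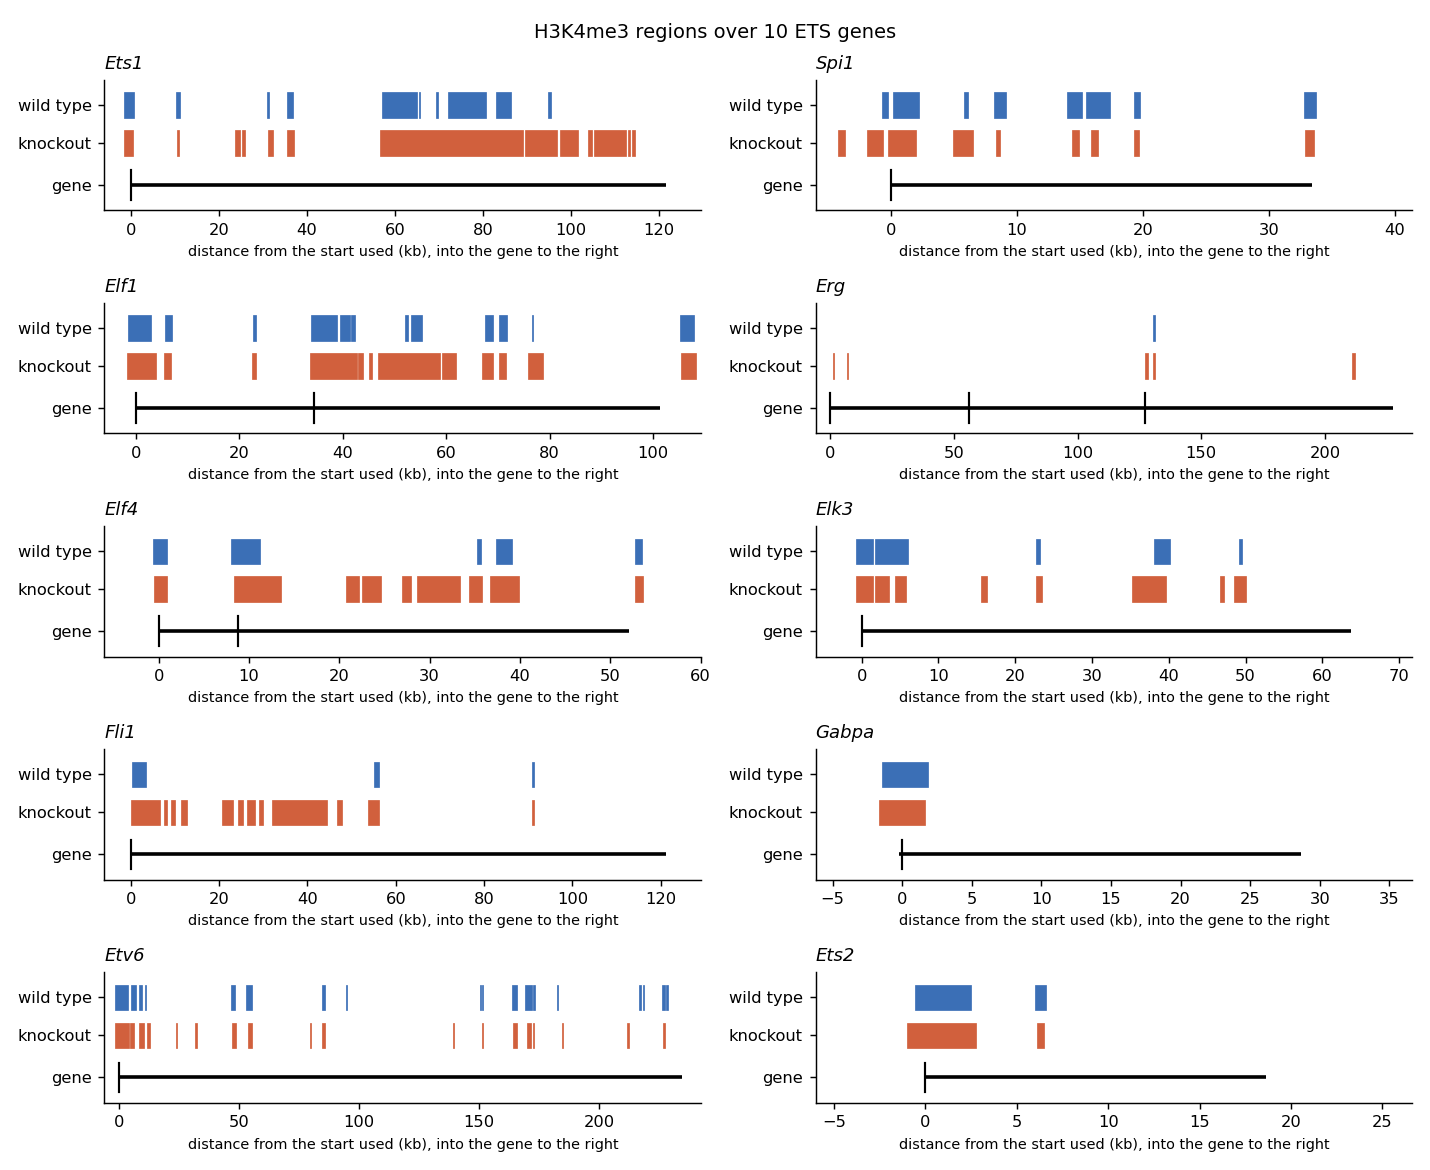
H3K4me3 regions of the wild-type list (blue) and the knockout list (orange) over each ETS gene, with distance in kb from the start used on the x axis, the gene as a black line and each listed start as a tick (for Ets1, Fli1 and Spi1 the tick is the gene boundary). The knockout list has a block of 32407 bp in Ets1 and 1 of 12421 bp in Fli1, while Gabpa and Ets2 look alike in both.

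Ets1 encodes a factor needed for T cell survival and differentiation, and it had the longest coverage of the 10 genes in both lists. Its gene spans chr9:32636241-32757820. The window of Ets1 held 26.5 kb under 10 wild-type regions and 59.9 kb under 13 knockout regions, which is 20.2 and 45.5% of the window. The log2 ratio was 1.16. In the knockout 1 region ran for 32407 bp, from 56.7 to 89.1 kb inside the gene (chr9:32692902-32725308), and the wild type had 5 separate regions within that span, of which the widest were 7949 and 8727 bp. Both lists had their strongest Ets1 summit at 60.9 kb, with authors' folds of 65.9 (wild type) and 62.2 (knockout), stronger than 99.99 and 99.9% of the regions of their own lists. Beyond that block the knockout had 6 further regions between 89.5 and 114.6 kb, against 1 wild-type region of 670 bp there.

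Both libraries had a region at the lower boundary of the Ets1 gene. That region was 2234 bp wide with a fold of 14.9 for the wild type and 1959 bp wide with a fold of 11.6 for the knockout, and its summit held 84 and 48 reads, which are not scaled between the libraries. None of the 34.5 kb covered only in the knockout lay within 2.5 kb of that boundary. Of the wild-type length, 95.9% was also under knockout regions, whereas 42.4% of the knockout length was under wild-type regions.

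Elf1 encodes an ETS activator of lymphoid genes. The Elf1 window held 21.2 kb of wild-type and 40.0 kb of knockout coverage, under 12 regions in each list, with a log2 ratio of 0.90. The outer start lay in a wild-type region of 4450 bp and a knockout region of 5446 bp. At the inner start, which is poor in CG, the wild-type region was 5072 bp with a fold of 33.3 and the knockout region 8967 bp with a fold of 42.3. Wild-type regions of 1929 and 645 bp followed closely within the span of that knockout region, and 85.3% of it was under wild-type regions. With regions no more than 1 kb apart joined, the domain at this start was 8491 bp for the wild type and 10246 bp for the knockout. The contrast of the single regions is thus largely a split of the wild-type coverage. Most of the added length followed this inner start: a knockout region of 12130 bp ran from 46.8 to 58.9 kb (chr14:79527961-79540090), where the wild type had 2 regions of 646 and 2145 bp. The last region of the Elf1 window, with folds of 35.4 and 47.3, lay over the start of Sugt1 and only its part within 5 kb of Elf1 was counted.

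Elf4 encodes an ETS factor that restrains the proliferation of CD8 T cells. Its window on chromosome X held 7.66 kb under 5 wild-type regions and 21.5 kb under 9 knockout regions, a log2 ratio of 1.43, which was 2.54 with the 20000 strongest regions of each list. The outer start was under regions of 1558 and 1376 bp, with folds of 14.8 and 15.8. At the inner start the wild-type region spanned 3240 bp and the knockout region 5230 bp. Between 20.8 and 33.3 kb inside the gene the knockout had 4 regions of 1036 to 4758 bp, and the wild type had none. All 5 wild-type regions of Elf4 overlapped a knockout region, where 78.0% of wild-type regions did over all gene windows.

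Fli1, which acts in lymphoid, megakaryocytic and endothelial cells, had a log2 ratio of 2.61, the largest of the 10 genes with all regions. The ratio was 3.86 with the 20000 strongest regions of each list, and at a −log10 q of at least 5 it was 2.55, below that of Erg. The Fli1 window held 4.87 kb under 3 wild-type regions and 32.3 kb under 12 knockout regions, so the share of the window that was covered went from 3.71 to 24.6%. The region at the start was 3132 bp wide with a fold of 4.87 in the wild type, stronger than 26.6% of that list, and 6455 bp with a fold of 19.9 in the knockout, stronger than 75.8% of its list. All 3 wild-type regions overlapped a knockout region, where 78.0% did over all gene windows. Over all gene windows 75.3% of knockout regions had a wild-type counterpart, whereas 9 of the 12 in Fli1 had none. The longest of these spanned 12421 bp (chr9:32499035-32511455), and ended 44.4 kb inside the gene, with a summit of 53 reads. From 0.062 to 56.3 kb into Fli1 the knockout had 11 regions and the wild type had 2. Farther in, near 91.1 kb, each list had 1 region, of 537 and 470 bp.

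Etv6, a repressor of the family needed for blood stem cells and vessel integrity, did not follow Fli1. The Etv6 window held 24.3 kb of wild-type and 24.0 kb of knockout coverage, under 18 regions in each list, with a log2 ratio of -0.02. Equal totals hid different places: 16.3 kb was under both lists, 7.63 kb was under the knockout alone and 7.96 kb under the wild type alone. The joined domain at the Etv6 start, formed by the rule given further on, was wider in the knockout, 8131 against 5163 bp, while inside the gene 7 wild-type regions, each at most 539 bp wide, had no knockout counterpart. Those 7 were the only wild-type regions in any of the 10 windows that no knockout region met. Over all gene windows 7023 of 31928 wild-type regions met none. The start region itself was strong in each list, with folds of 47.0 and 45.1, and it also covers the start of Gm46977, 388 bp away. Starts of noncoding genes also lie inside Etv6: that of Gm52920 had 2 wild-type regions and 1 knockout region within 1 kb, that of Gm17089 had 0 and 1, and those of Gm38908 and LOC118027456 had none in either list.

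**Figure D2:**
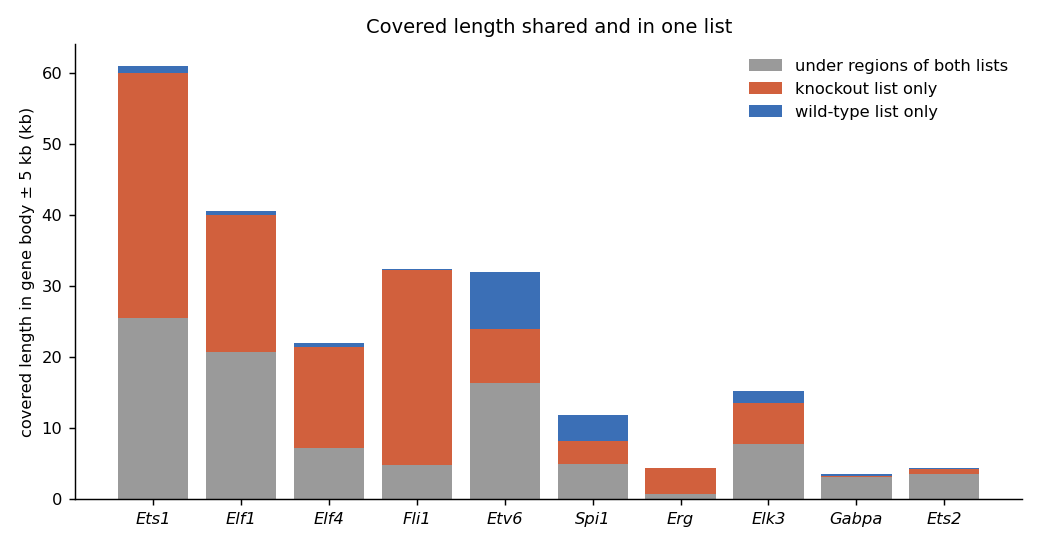
Covered length in each gene window in kb (y axis), split into length under regions of both lists (grey), of the knockout list only (orange) and of the wild-type list only (blue). Ets1, Elf1, Elf4 and Fli1 carry 34.5, 19.3, 14.3 and 27.5 kb under the knockout list only, and Etv6 and Spi1 carry similar lengths under each list alone.

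Spi1 encodes PU.1, the factor that directs macrophage, granulocyte and B cell fates and that committed T cells silence. It was covered in both libraries, with 8.44 kb under 8 wild-type regions and 8.21 kb under 9 knockout regions, a log2 ratio of -0.04. The sign turned with the filter: the log2 ratio was 0.18 at a −log10 q of at least 5 and 0.83 with the 20000 strongest regions of each list. The wider region at its boundary was 2059 bp with a fold of 9.62 for the wild type and 2258 bp with a fold of 16.7 for the knockout. The 1 region of Spi1 without a counterpart was a knockout region of 577 bp before the gene, with a fold of 7.74, the near end of which lay 3.66 kb ahead of the boundary. From 13.9 to 17.4 kb inside the gene the order was the other way, with wild-type regions of 1217 and 1934 bp and knockout regions of 534 and 579 bp. The strongest wild-type region of Spi1, with a fold of 22.1, lay at its far end. Of the wild-type length 57.4% was also covered in the knockout, the lowest share of the 10 genes. Beside this gene, the windows of the 10 myeloid markers summed to 36.7 kb (0 to 7779 bp per gene) for the wild type and 34.2 kb (343 to 8353 bp) for the knockout, with Csf1r, Fcgr1 and Clec7a shorter and Cybb longer (0 wild-type against 1491 knockout bp). Their part in the Spi1 values was not tested.

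Erg, the ETS factor that endothelial cells and blood stem cells share and that T cells switch off during commitment, was the least covered member in the wild type. A single wild-type region of 678 bp with a fold of 3.90 lay 131 kb inside the gene, and no listed start was marked. The knockout had 5 regions that summed to 4.36 kb, with folds of 4.15 to 9.40 and summits of 14 to 33 reads, where the lowest summit of the list had 10. The log2 ratio was 2.05, and it was 3.28 with regions at a −log10 q of at least 5 and 1.68 with 1000 bp added to each length. These regions came close to starts without covering them: 883 bp from the outermost start, 138 bp from the innermost, and none near the middle one. The widest of the 5 was 1065 bp, and the domain at a start, 957 bp, was wider than 6.97% of marked genes in the knockout list.

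Elk3, a ternary complex factor active in endothelium, had 9.48 kb under 5 wild-type regions and 13.5 kb under 8 knockout regions, a log2 ratio of 0.48 that stayed under the 1.5 times set for a call. Its start regions were about as wide, 2166 bp for the wild type and 2145 bp for the knockout, with folds of 17.9 and 24.6. Just behind the start the wild type had 1 region of 4299 bp, and the knockout had 2 regions there of 1776 and 1413 bp. Further in, a knockout region of 4398 bp from 35.3 to 39.7 kb met a wild-type region of 2106 bp that began at 38.1 kb. When only the 20000 strongest regions of each list were kept, the Elk3 ratio turned to -0.66 and passed the threshold in that direction. The endothelial markers beside Erg and Elk3 summed to 37.5 kb (0 to 12614 bp per gene) of wild-type coverage and 32.6 kb (0 to 16437 bp) of knockout coverage. The part of endothelial cells in the Erg and Elk3 values was not tested.

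The broad members had compact regions at their starts. Gabpa, the DNA-binding subunit of GABP, which regulates mitochondrial and ribosomal genes in most cells, had 1 wild-type region of 3317 bp and 1 knockout region of 3239 bp, with folds of 27.3 and 34.5 and summits of 125 and 124 reads. Ets2, an effector of Ras and MAP kinase signalling, had a start region of 3056 bp for the wild type and 3790 bp for the knockout, with 80 and 107 summit reads. The start of the noncoding gene Gm31989, at chr16:95700848, lies 1559 bp from that of Ets2. The knockout Ets2 start region itself begins at 95701383, within 1 kb of the Gm31989 start. The wild-type Ets2 start region begins at 95701860, just beyond 1 kb, so only the edge of a shared region differs there. A second Ets2 region, near 6.3 kb, was 608 and 387 bp wide. Their log2 ratios were -0.03 and 0.17.

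**Figure D3:**
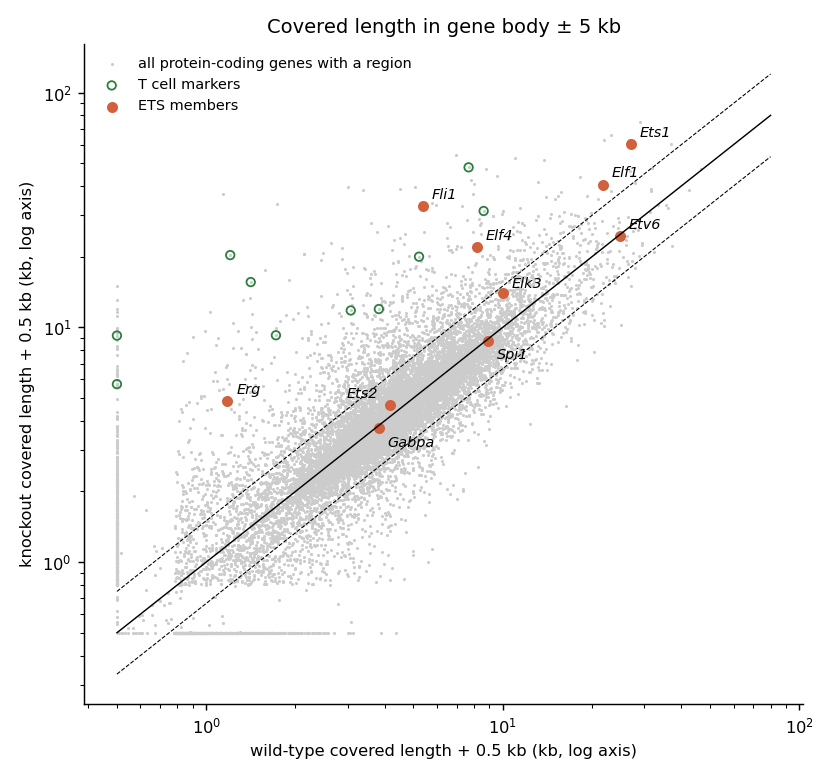
Covered length in the gene window plus 0.5 kb in the wild type (x axis, kb, log) and in the knockout (y axis, kb, log) for 16415 protein-coding genes (grey), the 10 T cell markers (green rings) and the 10 ETS genes (orange). The solid line is equality and the dashed lines mark 1.5 times in either direction, and Fli1, Erg, Elf4, Ets1 and Elf1 lie above the upper line.

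Presence of a mark at the start differed for 1 gene, Erg. That difference was absent at a −log10 q of at least 10, where 9 members were marked in each list. A region within 1 kb of a start was present for 9 members in both lists, where 58.8% of 21887 genes were, and for Erg in the knockout list alone, where 3.21% were. No member was marked in the wild-type list alone, where 1.62% were. For Ets1, Fli1 and Spi1, as for 4395 of the 21887 genes, the start used is the boundary with more coverage in these same lists. A mark at such a start is thus partly set by how the start was chosen. The domain at the start, made of regions no more than 1 kb apart, was at least 1.5 times wider in the knockout for Elf4, Fli1, Etv6 and Erg, with 500 bp added to each width. That was 4 of 10, against 12.6% of 13935 genes marked in either list, and no member was narrower, against 5.55%. Erg had no wild-type domain (0 against 957 bp), so its call repeats the mark found in the knockout alone. Which genes passed depended on the setting. Elf4 and Fli1 passed under each of the 5 alternatives of joining and filter, while Etv6 did not pass without joining, with gaps up to 3 kb joined or with the 20000 strongest regions, and Erg did not pass at a −log10 q of at least 10 or with the 20000 strongest regions. Elf1 passed under 4 of those alternatives and Spi1 under 3. The domain at the inner Elf1 start was among the widest, above 98.6% of marked genes of the wild-type list and 98.4% of those of the knockout list. The Fli1 domain stood above 65.3 and 96.8%, and the Ets1 domain above 34.5 and 26.1%. Both are domains at a gene boundary. The Ets1 values thus leave out its strongest summit, which lay 60.9 kb inside the gene in both lists.

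Taken over the 10 windows together, the added length lay mostly away from starts. Over the 10 windows, 94.2 kb was under both lists, 117 kb under the knockout list alone and 15.9 kb under the wild-type list alone. Of the knockout-only length, 96.2% lay more than 2.5 kb from the starts used, where over all genes with a region the share was 75.5%. The share was at least 98.3% in Ets1, Elf1, Elf4, Fli1, Etv6 and Elk3. It was below that of all genes in Erg (58.8%), Spi1 (54.6%), Ets2 and Gabpa, which held little of this length. The share over all genes was not matched for gene length, and length in overlapping windows is counted for each gene. For Ets1, Fli1 and Spi1 the start used is a gene boundary, and a transcript start inside these genes would not be counted. Of the length under both lists, 32.4% lay within 2.5 kb of a start in the members and 61.0% over all genes.

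Counted by region, 58 of the 65 in the wild-type list (89.2%, exact Clopper-Pearson 95% interval 79.1 to 95.6%) overlapped a knockout region, where 78.0% did over all gene windows. Of the 89 knockout regions, 52 overlapped a wild-type region (58.4%, 47.5 to 68.8%), where 75.3% did over all gene windows. At a −log10 q of at least 5 in both lists, the wild-type share was 82% in the 10 windows and 81.1% over all, and the knockout share 52 and 75.8%, so the higher wild-type share was not seen there. The intervals cover counting error only, and neighbouring regions of 1 gene are not independent. Knockout-only regions were weaker within their list, with a median fold of 4.98 against 8.84 for the knockout regions that were shared, and a range of 3.16 to 14.9. Of the 37 knockout-only regions, Fli1 held 9, Ets1 and Etv6 held 7 each, Elf4 and Erg 4 each, Elf1 3, Elk3 2 and Spi1 1.

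The rest of the ETS family was taken as a list of 16 genes, of which 14 had a region. Of these 1 was longer by 1.5 times in the knockout and 2 were shorter, beside the same 12.6 and 9.83% of all genes, and the median log2 ratio was -0.20. Etv3, a repressor of the family, had 3865 wild-type and 6489 knockout bp. Ehf, an epithelial ETS factor, had 2432 and 565 bp, and Fev, a factor of serotonin neurons, had 302 bp in the wild type and was at 0 in the knockout. Elk1, a ternary complex factor like Elk3, had 2111 and 1506 bp and did not pass. Elf5 and Spic had no region in either list. 

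Among 22 genes that encode partners of ETS factors, 7 were longer by 1.5 times in the knockout and none was shorter, beside 12.6 and 9.83% of all genes with a region. The median log2 ratio was 0.37. Ikzf1, the lymphoid factor Ikaros, had 7480 wild-type and 40100 knockout bp. Runx3, a Runt factor of CD8 T cells, had 3944 and 18464 bp. Irf4, an activation-induced partner of PU.1 in lymphocytes, had 1904 and 7230 bp, and Sox17, an endothelial factor, was at 0 in the wild type and had 1481 bp in the knockout. The GABP beta subunit genes Gabpb1 and Gabpb2 had 4316 against 5121 bp and 4139 against 3476 bp, and neither passed. The myeloid partner Cebpb had 6942 and 4773 bp, which also did not pass.

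**Figure D4:**
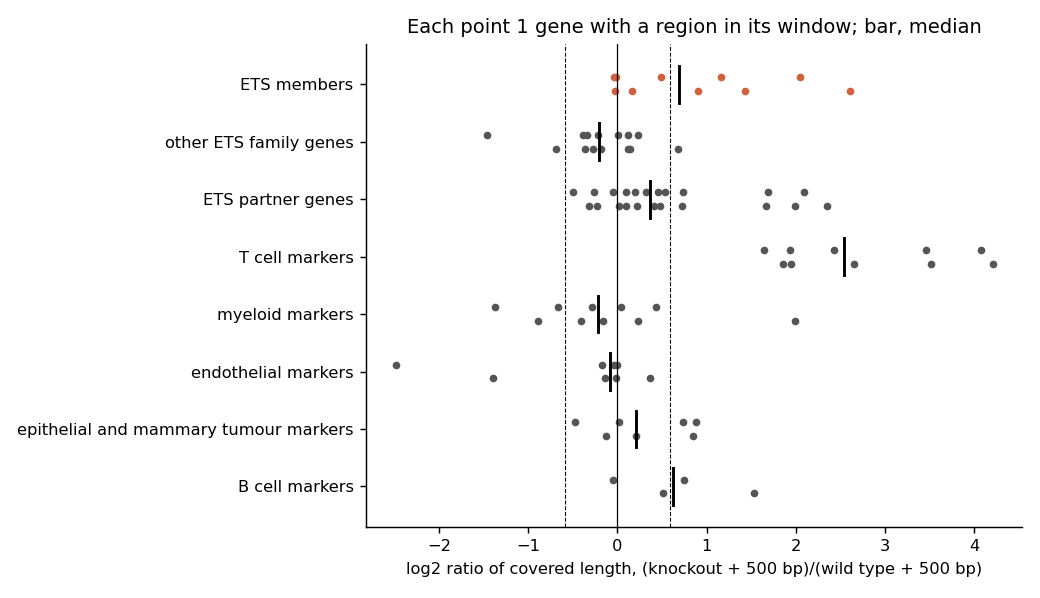
log2 ratio of covered length, knockout over wild type with 500 bp added to each (x axis), for every gene with a region in 8 gene lists, with the median of each list as a bar and dashed lines at 1.5 times. The medians run from -0.22 for myeloid markers to 2.54 for T cell markers, and the ETS members have 0.69.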

How the data were processed

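The authors called peaks with MACS2 on GRCm38 (mm10), per the submitters' processing notes. Version, settings, aligner and any use of input: not given in the sources used here. The deposited files give the start, end and summit of each region. The deposited fold is a ratio of summit reads to local background within 1 library. The deposited −log10 p and q refer to that summit, and the deposited score, derived from q, was not used. Autosomal, X and Y regions were kept, and 65 wild-type and 64 knockout regions elsewhere were left out. Genes and starts came from RefSeq tables of GRCm38.p6. Starts were those of the promoter table for 17492 genes, and otherwise the gene boundary with more coverage within 2.5 kb. Lengths under regions were summed per gene window. A ratio of 1.5 after adding 500 bp was a call, with no test, since each genotype had 1 library. Whole summit reads were solved from fold and p, to within 0.001 on the deposited −log10 scale, and fitted in 48012 of 48014 regions of the wild type and 45834 of 45836 of the knockout. Coverage code was tested on simulated intervals. Matplotlib 3.10.9, SciPy 1.17.1, pandas 2.3.3 and NumPy 2.4.6 ran under Python 3.11.15. The members and lists were chosen with earlier results of these data known. Named genes are all members, the 4 genes of the other ETS list and of the partner list with the largest absolute log2 ratio, and neighbours with a start in a window. Others named, among them Elf5, Spic, Gabpb1, Gabpb2, Cebpb and the markers, were chosen after their values were seen.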

Additional observations from a re-analysis of the deposited data

How the results depend on the processing

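No paired analysis was possible because each genotype had 1 library. The 5 members longer by 1.5 times numbered 5 in all 7 alternatives of filter, window or added length. With the 20000 strongest regions of each list, however, Erg had no region left and Spi1 passed in its place, and 1 member, Elk3, was shorter and also had the 1 narrower start domain. When at least 50% of a region had to be covered by the other list, 76.9% of wild-type and 46.1% of knockout regions in the 10 windows were shared, against 71.6 and 69.3% over all gene windows. Partner genes longer in the knockout numbered 9 at a −log10 q of at least 5, where 13.4% of all genes were longer, and 10 with the 20000 strongest regions, where 14.8% were. With the outermost listed start alone, an alternative chosen after seeing the data, 9 and 10 members were marked, and with the 20000 strongest regions 7 and 9 were. Depth is not stated, and region length depends on it and on the calling threshold.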

Other observations

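The ETS genes Fli1 and Ets1 lie side by side on chromosome 9, and Erg and Ets2 on chromosome 16, and the stretches between them lie outside the gene windows except for 5 kb at each end. The 92.8 kb between Fli1 and Ets1 held 2 wild-type regions with 2.49 kb covered and 9 knockout regions with 9.23 kb covered. The region at the Ets1 boundary reaches into this stretch in both lists. The 116 kb between Erg and Ets2 went the other way, with 5 wild-type regions and 4.98 kb covered against 4 knockout regions and 2.79 kb. These stretches were chosen after the values of the 10 genes were seen.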
